A study of Mus musculus with 12 samples.

Results

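The genes described here are 10 genes of the vascular endothelium, the cell layer that lines blood vessels: Cdh5, Pecam1, Cldn5, Tek, Kdr, Flt1, Klf2, Klf4, Nos3 and Edn1. They were taken by gene symbol from the annotation of a mouse Affymetrix expression array, using for each gene the probe set with the highest mean over the 12 arrays. The choice of probe set uses no measured difference, but the genes were chosen with earlier results of these data known. All 10 were among the 11602 genes that passed the filter on low values. The arrays measured total RNA of lung from wild type mice in 4 groups of 3. Groups were taken from the sample titles, since the description field of all 12 samples, the treated ones included, names a control animal. The combined group received a single dose of 25 Gy and simvastatin at 10 mg/kg by intraperitoneal injection 3 times a week before and after irradiation, at an age of 8 to 12 weeks. The simvastatin group received the same injections at 8 to 12 weeks of age, with no radiation dose in its labels although their injection schedule is also worded around irradiation, and the radiation group received 25 Gy without simvastatin at 8 to 12 weeks. Lungs of the irradiated groups were taken 6 weeks after the dose. The control group received vehicle and was 8 to 10 weeks old, so this difference in age range and the treatments cannot be told apart. The sources used here name neither the strain nor the irradiated field.

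Endothelial cells hold together through adherens junctions built on VE-cadherin, the product of Cdh5, through tight junctions that contain claudin-5, the product of Cldn5, and through contacts of PECAM-1, the product of Pecam1. Growth and survival signals reach them through the VEGF receptors encoded by Kdr and Flt1 and through the angiopoietin receptor encoded by Tek. Klf2 and Klf4 encode zinc finger transcription factors that laminar flow induces in cultured endothelial cells. Statins block cholesterol synthesis at HMG-CoA reductase, and in cultured endothelial cells they raise Klf2, Klf4 and the endothelial nitric oxide synthase encoded by Nos3. Edn1 encodes the vasoconstrictor peptide endothelin-1, which lung epithelium also makes, and Klf4 is also a gene of squamous epithelium.

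The promoters of Klf2 and Klf4 are shown because the levels of these transcription factor genes were the members most different between arrays with and without simvastatin. Each sequence is the RefSeq window of 300 bases, with 250 before and 50 after the transcription start, on mouse build GRCm38.p6. The Klf2 window lies at chr8:72318812-72319111 on the plus strand and the Klf4 window at chr4:55532426-55532725 on the minus strand. Capitals mark matches on either strand to the GC box GGGCGG, bound by Sp factors, to CCACCC, a motif of the KLF family, and to CTANNNNTAG, a MEF2 motif.
Klf2: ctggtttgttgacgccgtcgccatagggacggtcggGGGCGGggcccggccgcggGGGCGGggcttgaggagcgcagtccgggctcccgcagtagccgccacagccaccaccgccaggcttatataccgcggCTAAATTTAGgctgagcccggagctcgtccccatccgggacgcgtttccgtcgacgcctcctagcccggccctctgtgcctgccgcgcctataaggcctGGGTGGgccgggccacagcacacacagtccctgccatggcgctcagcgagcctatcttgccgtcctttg
Klf4: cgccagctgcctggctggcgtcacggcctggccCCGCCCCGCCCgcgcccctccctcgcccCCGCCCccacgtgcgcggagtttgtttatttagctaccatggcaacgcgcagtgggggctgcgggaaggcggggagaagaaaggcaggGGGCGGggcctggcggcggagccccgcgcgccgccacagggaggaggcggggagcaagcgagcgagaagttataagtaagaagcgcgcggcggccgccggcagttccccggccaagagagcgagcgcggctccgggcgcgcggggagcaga
The Klf2 window held 2 GC boxes, 1 CCACCC match 19 bases before the start and 1 MEF2 match 118 bases before the start. The Klf4 window held 4 GC boxes, of which the matches at 217 and 212 bases before the start overlapped, and neither other motif. Of 32851 windows of the same kind, 35.7% held a GC box, 31.5% held CCACCC and 3.69% held the MEF2 motif. Among the 5 other members with a window, Flt1 held 3 GC boxes, Kdr 2 and Cldn5 1, and these letters were not in the windows of Tek and Edn1. No other window of a member held the MEF2 motif. Windows were matched for 7 of the 10 members, and Cdh5, Pecam1 and Nos3 are named only. A match is a description of letters and not evidence of binding.

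Several arrays stood apart from their group or went against their label. Cdkn1a and Eda2r, targets of p53 that serve as a check of the radiation labels, were high on the arrays labelled combined 1 and 2, simvastatin 2, radiation 1 to 3 and control 3, with Cdkn1a between 13.0 and 13.4 and Eda2r between 7.49 and 8.43 on the log2 scale. Cdkn1a was between 10.2 and 11.2 and Eda2r between 3.54 and 4.75 on the arrays labelled combined 3, simvastatin 1 and 3, and control 1 and 2. The arrays labelled simvastatin 1, simvastatin 3 and combined 3 were near-identical, with a standard deviation of log2 differences of 0.111 to 0.118 between pairs against 0.336 to 1.02 in the other 63 pairs, so simvastatin 1 and 3 were averaged and counted as 1 sample, which leaves n = 2 in the simvastatin group. Combined 3 was kept in its labelled group, where it counts as a separate sample in every fit and spread. The Y-linked gene Eif2s3y was at 10.2 on control 3 and 10.4 on radiation 1 and at most 3.46 on the other arrays, and the labels give no sex. Control 1 was the lowest array for 8 of the 10 members, against 35.1% of all genes tested. Its summed level of 16 endothelial markers was the lowest of the 12 arrays, at a log2 of 15.4 against 15.8 to 16.7 elsewhere. These markers include the members Cdh5, Pecam1, Cldn5, Tek, Kdr and Flt1, so the sum and the count of members share genes. The thymocyte and T cell markers of control 1 summed to 15.7, with 12.2 on combined 1 and 7.68 to 9.12 on the other 10 arrays. All 16 endothelial and all 8 lung epithelial markers were above the median of all values on every array. Values without control 1, or without control 3, combined 3 and simvastatin 2, stand beside the results that they move most. The labels do not say that replicates came from separate animals, so a p-value reflects only the spread seen among these samples, which may be technical.

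Klf4 had the lowest unadjusted p of the 10 genes in each of the 3 comparisons with the control group. Its log2 level (Entrez gene 16600) was 14.05, 14.32 and 14.12 on combined arrays 1 to 3, 14.11, 13.76 and 14.13 on simvastatin arrays 1 to 3, 13.68, 13.18 and 14.13 on radiation arrays 1 to 3, and 11.98, 13.53 and 12.76 on control arrays 1 to 3. Every combined and every simvastatin array lay above every control array, while radiation 2 lay below control 2. The means were 14.16 ± 0.14 in the combined group (SD, n = 3), 13.94 ± 0.26 in the simvastatin group (SD, n = 2), 13.66 ± 0.47 in the radiation group and 12.75 ± 0.77 in the control group (SD, n = 3 each). The steps from the combined to the simvastatin group and from the simvastatin to the radiation group were within the spread of the arrays. The step from the radiation to the control group was larger than the SD of either group, but their arrays overlapped. Combined minus control was 1.41 ± 0.36 (SE), a 2.65-fold difference, with a 95% interval of 0.60 to 2.21 and an unadjusted limma p of 0.00308, the 6th lowest of 11602 genes. Its Benjamini-Hochberg adjusted p over all genes was 0.995 in limma, so the call was not made. The difference was 1.02 without control 1, 1.43 without control 3, combined 3 and simvastatin 2, and 0.77 with array weights. A second probe set of Klf4 ordered the group means alike, with 12.56 to 12.98 on combined arrays, 12.45 to 12.62 on simvastatin arrays, 11.56 to 12.85 on radiation arrays and 10.29 to 12.18 on control arrays.

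Klf2 (Entrez gene 16598) varied with Klf4 from array to array. Its level was 13.30, 13.07 and 13.50 on combined arrays 1 to 3, 13.59, 13.18 and 13.47 on simvastatin arrays 1 to 3, 12.66, 11.89 and 13.36 on radiation arrays 1 to 3, and 11.32, 13.07 and 11.92 on control arrays 1 to 3. The simvastatin arrays all lay above the control arrays, and combined 2 and control 2 were level to the second decimal. Klf2 averaged 13.29 ± 0.22 in the combined group (SD, n = 3), 13.35 ± 0.25 in the simvastatin group (SD, n = 2), 12.64 ± 0.73 in the radiation group and 12.10 ± 0.89 in the control group (SD, n = 3 each). The spread was widest in the groups without simvastatin, and neighbours in the order simvastatin, combined, radiation and control did not differ beyond it. Simvastatin minus control was 1.25 ± 0.50 (SE, 95% interval 0.12 to 2.38), with an unadjusted p of 0.0336 and an adjusted p of 0.990 in limma. This value was 0.86 without control 1 and 0.44 with array weights. Over the 11 samples Klf2 and Klf4 had a Pearson correlation of 0.93, and of 0.88 without control 1. These samples share the 4 groups and the arrays that stood apart, so the correlation is a description.

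Nos3 (Entrez gene 18127), whose product makes nitric oxide in endothelium, was at 8.99, 8.84 and 8.94 on combined arrays 1 to 3, 9.02, 8.16 and 8.87 on simvastatin arrays 1 to 3, 8.51, 8.49 and 9.61 on radiation arrays 1 to 3, and 7.15, 8.09 and 8.42 on control arrays 1 to 3. The combined and radiation arrays all lay above the control arrays, and simvastatin 2 lay below control 3. Nos3 averaged 8.92 ± 0.078 in the combined group (SD, n = 3), 8.55 ± 0.56 in the simvastatin group (SD, n = 2), 8.87 ± 0.64 in the radiation group and 7.88 ± 0.66 in the control group (SD, n = 3 each). The combined, radiation and simvastatin groups did not differ beyond their spread. Radiation minus control was 0.98 ± 0.40 (SE, unadjusted p = 0.0349, adjusted p = 0.751 in limma), a 1.98-fold difference. On the log2 scale it was 0.61 without control 1. Without control 3, radiation 1 and radiation 2 it was 1.99, but there the radiation group is the single array radiation 3. Radiation 3 was the highest Nos3 array, at 9.61. Combined minus control was 1.04 ± 0.40 (SE, unadjusted p = 0.0277, adjusted p = 0.995 in limma) and 0.67 without control 1.

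Edn1 (Entrez gene 13614) was at 9.83, 9.13 and 9.42 on combined arrays 1 to 3, 9.52, 9.50 and 9.52 on simvastatin arrays 1 to 3, 9.44, 9.46 and 9.77 on radiation arrays 1 to 3, and 8.72, 9.27 and 9.11 on control arrays 1 to 3. The simvastatin and radiation arrays lay above all 3 control arrays, and combined 2 lay below control 2. Edn1 averaged 9.46 ± 0.35 in the combined group (SD, n = 3), 9.51 ± 0.012 in the simvastatin group (SD, n = 2), 9.56 ± 0.19 in the radiation group and 9.03 ± 0.28 in the control group (SD, n = 3 each). Radiation minus control was 0.52 ± 0.22 (SE, unadjusted p = 0.0414, adjusted p = 0.751 in limma) and was 0.37 without control 1.

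**Figure D1:**
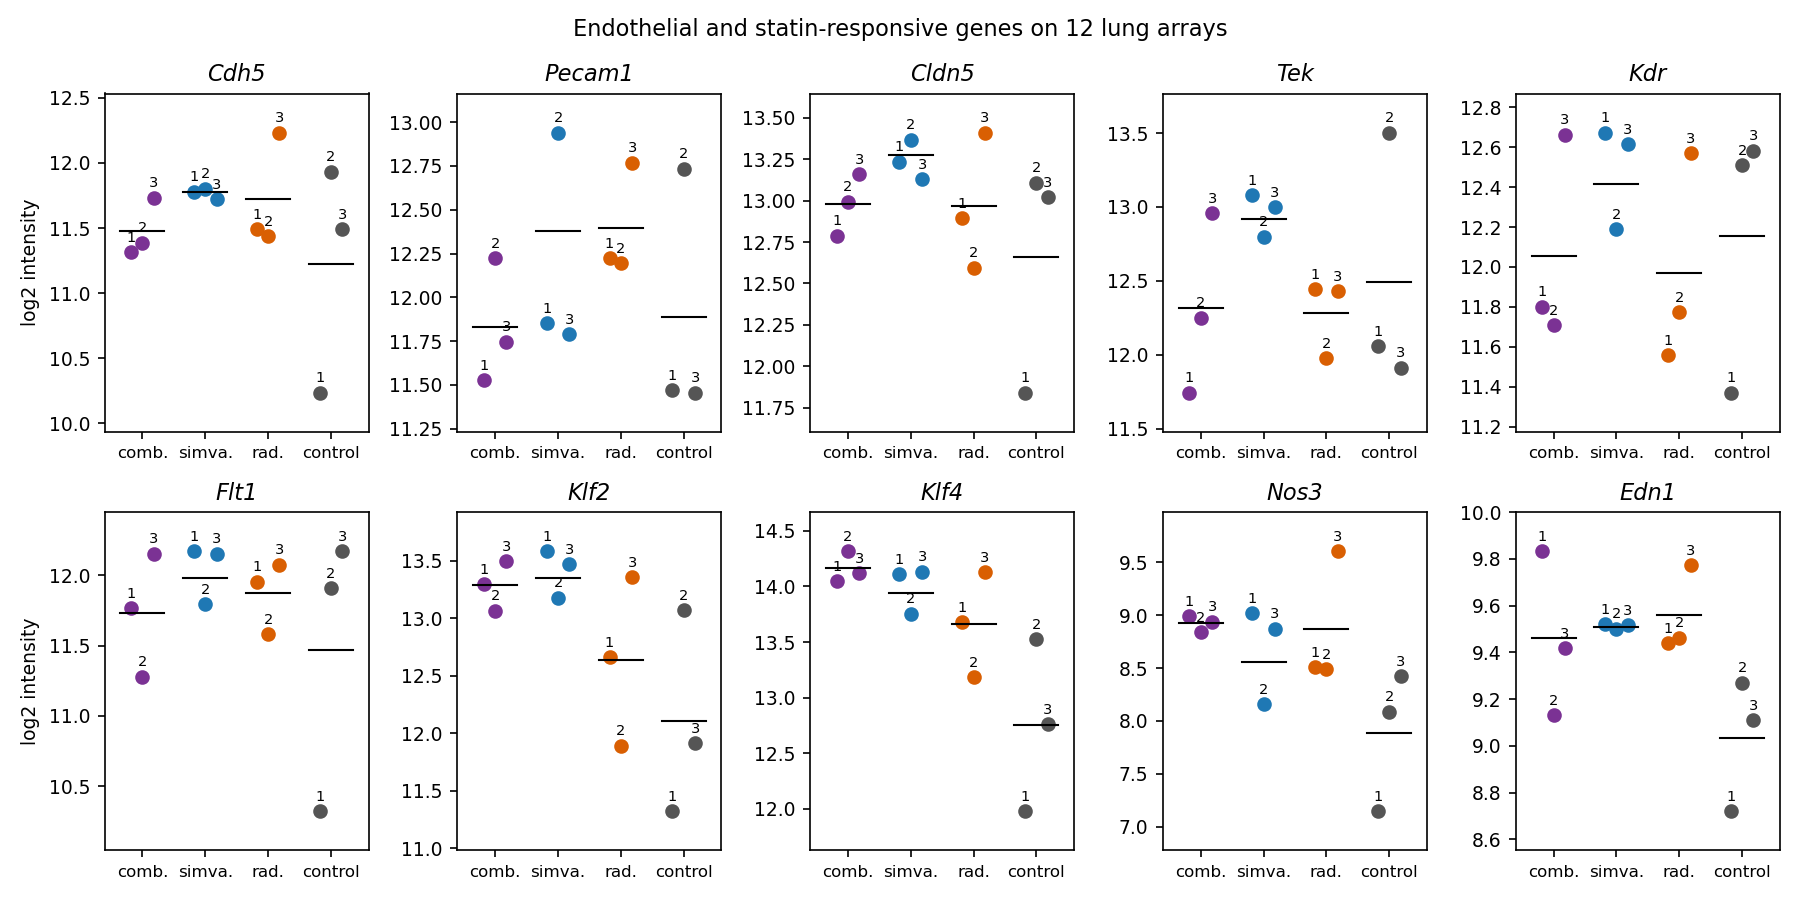
Log2 level of each of the 10 genes on each of the 12 arrays, by group, with the replicate number beside each point. Klf4 lies between 13.76 and 14.32 on the combined and simvastatin arrays and between 11.98 and 13.53 on the control arrays, and control 1 is the lowest array for 8 of the 10 genes.

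The levels of the junction genes overlapped between the groups almost throughout. Cdh5 (Entrez gene 12562) was at 11.32, 11.39 and 11.73 on combined arrays 1 to 3, 11.78, 11.80 and 11.72 on simvastatin arrays 1 to 3, 11.49, 11.44 and 12.23 on radiation arrays 1 to 3, and 10.24, 11.93 and 11.49 on control arrays 1 to 3. Control 1 stood more than 1 log2 unit below the other 11 arrays, and the remaining control arrays lay inside the range of the treated ones. Cdh5 averaged 11.48 ± 0.22 in the combined group (SD, n = 3), 11.77 ± 0.037 in the simvastatin group (SD, n = 2), 11.72 ± 0.45 in the radiation group and 11.22 ± 0.88 in the control group (SD, n = 3 each). Radiation minus control was 0.50 ± 0.39 (SE, adjusted p = 0.757 in limma), and it was 0.0067 without control 1. A second Cdh5 probe set read 3.52 to 6.36, around the median of all values.

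Cldn5 (Entrez gene 12741) was at 12.79, 12.99 and 13.16 on combined arrays 1 to 3, 13.24, 13.37 and 13.13 on simvastatin arrays 1 to 3, 12.89, 12.60 and 13.41 on radiation arrays 1 to 3, and 11.84, 13.11 and 13.02 on control arrays 1 to 3. The simvastatin arrays lay above the control arrays, narrowly so for simvastatin 3 against control 2, and the other groups overlapped the controls. Cldn5 averaged 12.98 ± 0.19 in the combined group (SD, n = 3), 13.28 ± 0.13 in the simvastatin group (SD, n = 2), 12.97 ± 0.41 in the radiation group and 12.66 ± 0.71 in the control group (SD, n = 3 each). Simvastatin minus control was 0.62 ± 0.37 (SE, 95% interval −0.20 to 1.44, adjusted p = 0.990 in limma), and 0.21 without control 1. Cdh5 and Cldn5 had the highest correlation among the 45 pairs of members, 0.95 over 11 samples and 0.81 without control 1.

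Pecam1 (Entrez gene 18613), which platelets and leukocytes also make, was at 11.53, 12.22 and 11.75 on combined arrays 1 to 3, 11.85, 12.94 and 11.79 on simvastatin arrays 1 to 3, 12.22, 12.20 and 12.77 on radiation arrays 1 to 3, and 11.47, 12.73 and 11.46 on control arrays 1 to 3. Simvastatin 2 was the highest array, about 1 log2 unit above the other simvastatin arrays, and every pair of groups overlapped. Combined minus radiation was −0.56 ± 0.40 (SE, 95% interval −1.46 to 0.33, adjusted p = 0.835 in limma). Combined minus simvastatin was −0.55 ± 0.45 (SE, adjusted p = 0.99998 in limma), and it was 0.01 without simvastatin 2.

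The receptor genes came next. Tek (Entrez gene 21687) was at 11.74, 12.25 and 12.96 on combined arrays 1 to 3, 13.08, 12.80 and 13.00 on simvastatin arrays 1 to 3, 12.44, 11.98 and 12.43 on radiation arrays 1 to 3, and 12.06, 13.50 and 11.91 on control arrays 1 to 3. Control 2 was the highest Tek array, and only combined 1 lay below control 3. The simvastatin arrays lay wholly above the radiation arrays, a pair that no comparison tested. The share of all genes with this separation was not computed, and simvastatin 1 and 3 are near-identical. The other groups overlapped. Kdr (Entrez gene 16542) was at 11.80, 11.71 and 12.66 on combined arrays 1 to 3, 12.67, 12.19 and 12.61 on simvastatin arrays 1 to 3, 11.56, 11.77 and 12.57 on radiation arrays 1 to 3, and 11.37, 12.51 and 12.58 on control arrays 1 to 3. Combined 1 and 2, radiation 1 and 2 and control 1 were at 11.80 or below for Kdr, and the remaining arrays were at 12.19 or above. Flt1 (Entrez gene 14254) was at 11.77, 11.28 and 12.15 on combined arrays 1 to 3, 12.17, 11.79 and 12.16 on simvastatin arrays 1 to 3, 11.96, 11.58 and 12.07 on radiation arrays 1 to 3, and 10.32, 11.91 and 12.17 on control arrays 1 to 3. Here too control 1 alone was far below the others. Radiation minus control was −0.21 ± 0.42 for Tek, −0.19 ± 0.40 for Kdr and 0.40 ± 0.44 for Flt1 (SE), with adjusted p of 0.885, 0.891 and 0.789 in limma. Single arrays set these values: without control 1 they were −0.42 for Tek, −0.58 for Kdr and −0.17 for Flt1, and without control 2 Tek was at 0.30. With array weights Tek was at −1.04 and Kdr at −0.74. Flt1 has 4 probe sets on the array, and control 1 was the lowest array on 3 of them. On the other, which read 3.55 to 6.90, control 3 was the lowest.

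Taking the genes by comparison, none of the 10 passed an adjusted p of 0.05 in any of the 8 comparisons made, and neither did any of the 11602 genes in limma. For simvastatin against control, which asks what the drug alone did, 10 of 10 members had a difference above 0, where 49.6% of all genes did, and their median was 0.53 against −0.0023 over all genes. Of the 10, 2 had an unadjusted p under 0.05, Klf2 and Klf4, against 1.84% of all genes (214 genes), and 4 had simvastatin arrays wholly above control arrays, Klf2, Klf4, Cldn5 and Edn1, against 3.36%. None had simvastatin arrays wholly below, against 7.96%. Both shares over all genes were counted with simvastatin 1 and 3 averaged. Klf4 differed by 1.18 ± 0.40 (SE, 95% interval 0.29 to 2.08, unadjusted p = 0.0151, adjusted p = 0.990 in limma), and by 0.53 with array weights. Without control 1 the members above 0 numbered 8, where 37.6% of all genes were above 0, and their median was 0.25 against −0.075. In bulk tissue, fewer endothelial cells and less RNA per cell cannot be told apart.

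For radiation against control, 8 of 10 members were above 0, where 60.4% of all genes were, with a median of 0.50 against 0.084. An unadjusted p under 0.05 was found for Klf4, Nos3 and Edn1, 3 of 10 against 5.17% of all genes (600 genes), and radiation arrays lay wholly above control arrays for Nos3 and Edn1, 2 of 10 against 4.86%, and wholly below for none, against 2.03%. Klf4 differed by 0.91 ± 0.36 (SE, unadjusted p = 0.0306, adjusted p = 0.751 in limma), by 0.52 without control 1 and by 0.15 with array weights. Without control 1, 6 members were above 0, where 52.7% of all genes were, and the median was 0.076 against 0.015. For combined against control, 7 of 10 were above 0, where 50.5% of all genes were, with a median of 0.29 against 0.0039. An unadjusted p under 0.05 was found for Klf2, Klf4 and Nos3, 3 of 10 against 2.82% (327 genes), and combined arrays lay wholly above control arrays for Klf4 and Nos3, 2 of 10 against 2.67%, and wholly below for none, against 3.87%. Klf2 differed by 1.18 ± 0.45 (SE, unadjusted p = 0.0263, adjusted p = 0.995 in limma), by 0.79 without control 1 and by 0.30 with array weights. Without control 1, 4 members were above 0, where 40.8% of all genes were, and the median was −0.16 against −0.061. These 3 comparisons share the control arrays, so their members' values are given side by side and not compared.

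**Figure D2:**
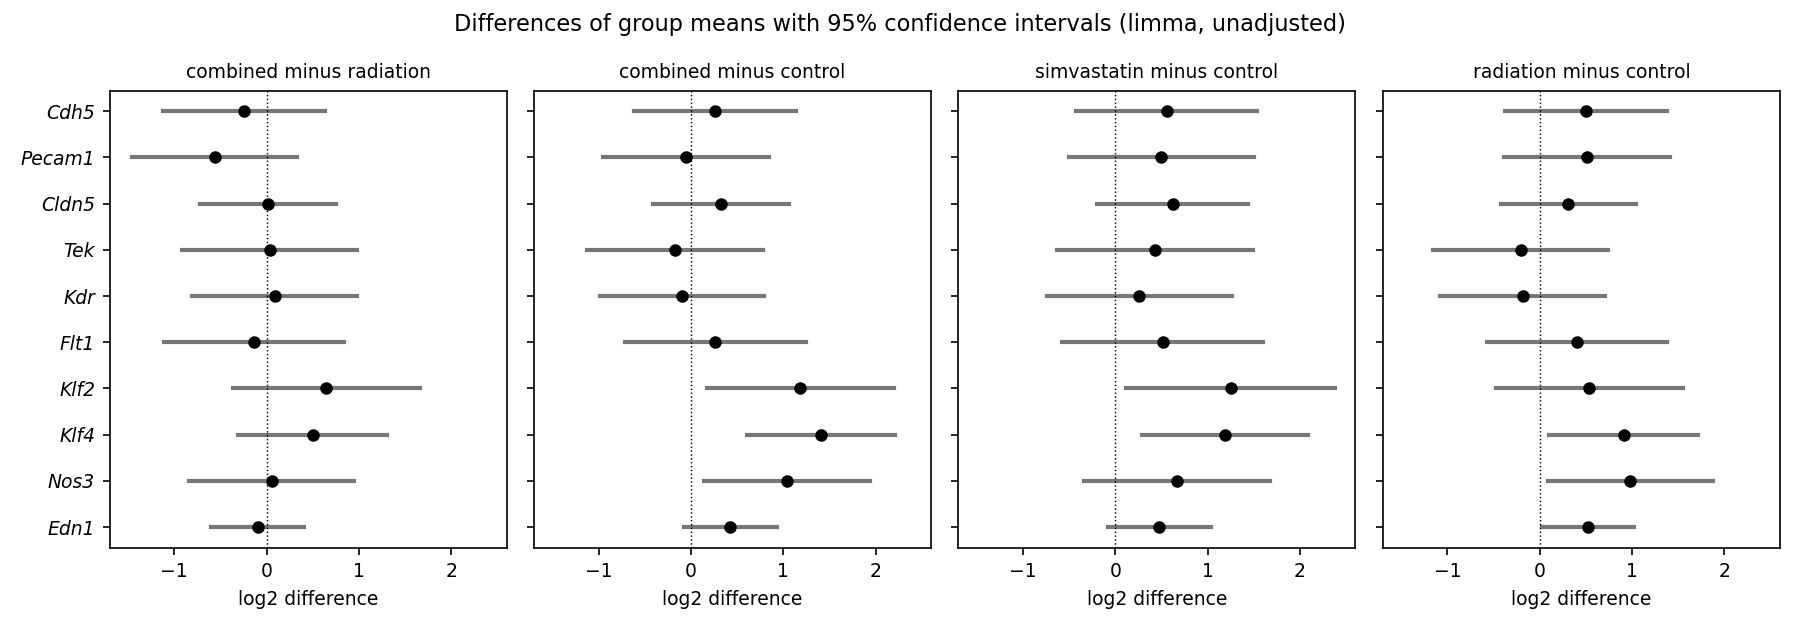
Log2 difference of group means for each of the 10 genes in 4 comparisons, with 95% intervals from limma before adjustment. The intervals of Klf4 exclude 0 in the 3 comparisons with the control group, at 1.41 for combined, 1.18 for simvastatin and 0.91 for radiation, and every interval of combined minus radiation includes 0.

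Combined against radiation is the comparison that asks what simvastatin did in irradiated lung. Klf2 was higher by 0.65 ± 0.45 (SE, 95% interval −0.36 to 1.66) and Klf4 by 0.50 ± 0.36 (SE, 95% interval −0.30 to 1.30), with the other 8 members between −0.56 for Pecam1 and 0.089 for Kdr. Members above 0 numbered 6 of 10, where 37.4% of all genes were above 0, and none of the 10 had an unadjusted p under 0.05 (4.46% of all genes, 518 genes) or groups that did not overlap (3.7% higher and 13.5% lower over all genes). The count above 0 moved with single arrays. It was 3 without radiation 1, 2 without radiation 2 and 8 without radiation 3. It was 8 without combined 2 and 3 without combined 3. With each array centred on its median it was 2, where 12.1% of all genes were above 0. The lowest unadjusted p of a member was 0.182 in limma, and adjusted p ran from 0.835 to 0.996. The Klf2 difference was −0.07 without control 3, radiation 1 and radiation 2, where the radiation group is the single array radiation 3. Without radiation 2 alone it was 0.28, and that of Klf4 was 0.26. For combined against simvastatin, 2 of 10 members were above 0, where 49.1% of all genes were, and no member had an unadjusted p under 0.05 (1.32% of all genes, 153 genes). Cdh5 and Cldn5 differed by −0.30 each, and their combined values did not overlap the simvastatin values after simvastatin 1 and 3 were averaged, 2 of 10 against 6.76% of all genes, and no member lay wholly above, against 7.76%. Over single arrays combined 3 lay above simvastatin 3 for both genes.

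The test of whether the drug's difference was the same with and without irradiation (combined minus radiation minus simvastatin plus control) was below 0 for all 10 members, where 42.7% of all genes were above 0. The members' median was −0.61, against −0.088 over all genes. Without control 1 the median was −0.23, against −0.022, and with array weights it was −0.12, against −0.11, with 4 members above 0. The lowest was Pecam1 at −1.06 ± 0.60 (SE, unadjusted p = 0.109, adjusted p = 0.882 in limma), which was −0.50 without simvastatin 2 and −0.24 without control 3, combined 3 and simvastatin 2. No member had an unadjusted p under 0.05, against 3.25% of all genes (377 genes). Without control 1 the difference of 1 member was above 0, where 47.3% of all genes were.

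In a comparison added after the values were seen, the mean of the combined and simvastatin groups was set against the mean of the radiation and control groups. The near-identical combined 3 and mean of simvastatin 1 and 3 count there as separate samples, so the p-values rest on fewer distinct profiles than samples. Klf2 differed by 0.95 ± 0.34 (SE, unadjusted p = 0.0194) and Klf4 by 0.84 ± 0.27 (SE, unadjusted p = 0.0113), with an adjusted p of 0.989 for both in limma, and these were the 2 of 10 members with an unadjusted p under 0.05, against 2.78% of all genes (322 genes). Members above 0 numbered 9 of 10, where 39.6% of all genes were above 0. Without control 1 they numbered 6, where 32.9% of all genes were above 0. Both Klf genes were above 0 in all 23 alternatives, at 0.54 to 1.19 for Klf2 and 0.57 to 1.03 for Klf4. In the matching comparison of the irradiated with the unirradiated groups, Nos3 had 0.68 ± 0.30 (SE, unadjusted p = 0.0489, adjusted p = 0.999 in limma), 1 of 10 members against 1.3% of all genes (151 genes), and 7 of 10 were above 0 where 61.7% of all genes were.

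To set aside differences that all endothelial genes share on an array, the mean of Cdh5, Pecam1, Cldn5, Tek, Kdr and Flt1 on that array was subtracted from each of the other 4 genes. This 6-gene mean, centred over the samples, was −0.33, −0.18 and 0.25 on combined arrays 1 to 3, 0.31, 0.33 and 0.25 on simvastatin arrays 1 to 3, −0.06, −0.22 and 0.43 on radiation arrays 1 to 3, and −0.93, 0.47 and −0.04 on control arrays 1 to 3. Control 1 was again the lowest and control 2 the highest. Relative to it, Klf2 averaged 0.44 ± 0.27 in the samples given simvastatin (SD, n = 5) and −0.37 ± 0.38 in those not given it (SD, n = 6), a difference of 0.81. The 5 samples include combined 3, near-identical to simvastatin 1 and 3, so their SD is not that of 5 distinct profiles. Only radiation 3 among the samples without simvastatin, at 0.13, lay above the lowest sample with it, simvastatin 2 at 0.049. Klf4 averaged 0.40 ± 0.44 in samples given simvastatin and −0.33 ± 0.40 in those not given it, a difference of 0.73, and all 3 control arrays, at −0.69, −0.54 and −0.80, lay below every treated array. The differences were 0.78 for Klf2 and 0.66 for Klf4 without control 1, and 0.85 and 0.87 without control 3, combined 3 and simvastatin 2. For Nos3 and Edn1 the differences were 0.27 and 0.052, within the spread of the samples, and 0.57 and 0.17 without control 3, combined 3 and simvastatin 2. These relative levels are a description with no test, since the genes were chosen with the results known.

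**Figure D3:**
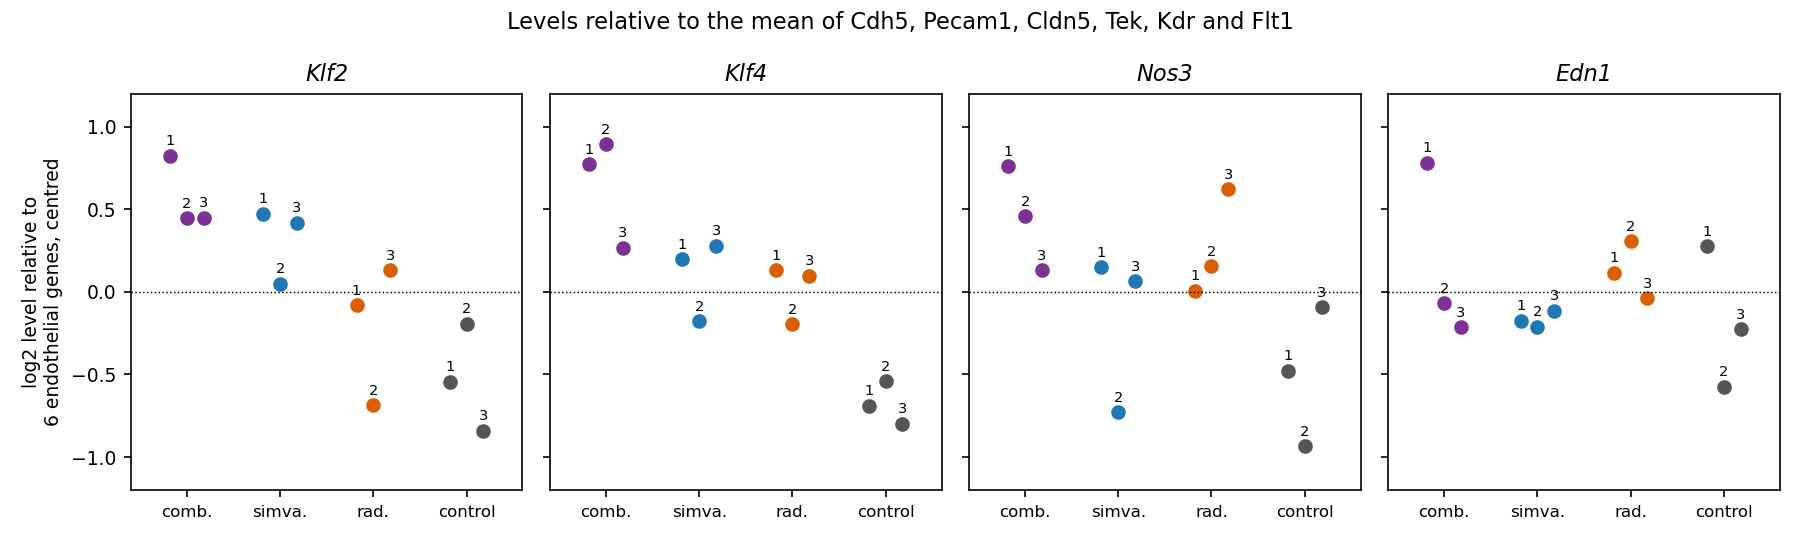
Log2 level of Klf2, Klf4, Nos3 and Edn1 on each array after subtracting the mean of the 6 junction and receptor genes on that array, centred at 0 over the samples. Klf2 lies above 0 on all combined and simvastatin arrays, from 0.049 to 0.82, and the 3 control arrays of Klf4 lie below all other arrays.

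Members varied together over the samples, with correlations from 0.018 to 0.95 and a median of 0.62 among 45 pairs. Without control 1 the median was 0.33 and 37 of the 45 pairs were above 0. Tek and Nos3 were the least alike, at 0.018 with and −0.25 without control 1. Among all genes tested, those whose levels were most like a member's over 11 samples included Icam2, an endothelial adhesion molecule, with Pecam1 (Pearson r = 0.935, rho = 0.873), Kit, a receptor tyrosine kinase, with Tek (r = 0.962, rho = 0.927), and Cebpd, a transcription factor gene, with Edn1 (r = 0.899, rho = 0.891). Card10 was among the 2 nearest genes of both Klf2 (r = 0.947) and Klf4 (r = 0.933), beside Slc3a2 for Klf2 (r = 0.956) and Slc10a6 for Klf4 (r = 0.945). Zcchc14 and Cntln were nearest to Cdh5 (r = 0.987 and 0.981), Cpeb4 and Cacna1d to Cldn5 (r = 0.967 and 0.966), Itpkb and Sipa1l2 to Kdr (r = 0.958 and 0.957), Trim3 and Tmem63a to Flt1 (r = 0.983 and 0.974), and Phldb1 and Pdlim7 to Nos3 (r = 0.954 and 0.95). BC028528 for Pecam1 (r = 0.935), Fmo1 for Tek (r = 0.960) and Pced1a for Edn1 (r = 0.914) complete the list. Likeness was measured over the samples that also carry the groups and the arrays that stood apart, and it is given with no test.

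None of the genes in the wider endothelial lists passed the test in any comparison, and Esam, Tie1 and Ptprb stand in more than 1 list. Of 24 further endothelial identity genes, all measured, 22 were above 0 in simvastatin minus control with a median of 0.42, and 17 without control 1 with a median of 0.11, against −0.0023 and −0.075 over all genes. The share of all genes above 0 was 49.6%, and 37.6% without control 1. In radiation minus control 22 of 24 were above 0 (median 0.23), and 14 without control 1 (median 0.02), against 60.4% and 52.7% of all genes. In combined minus control 16 of 24 were above 0 (median 0.14), and 4 without control 1 (median −0.17), against 50.5% and 40.8% of all genes. Vwf, which encodes the clotting protein von Willebrand factor, had the lowest p of the list in these 3 comparisons. It was at 13.44, 13.54 and 13.92 on combined arrays 1 to 3, 13.91, 13.90 and 13.88 on simvastatin arrays 1 to 3, 13.88, 13.22 and 13.77 on radiation arrays 1 to 3, and 12.31, 13.49 and 12.71 on control arrays 1 to 3. Simvastatin minus control was 1.06 ± 0.32 (SE, adjusted p = 0.990 in limma), and 0.80 without control 1. Aplnr, the apelin receptor gene, was at 8.82, 9.44 and 12.66 on combined arrays 1 to 3 and 12.77, 9.85 and 12.79 on simvastatin arrays 1 to 3, so that combined 3 resembled simvastatin 1 and 3 and not its own group.

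Of the 24 listed junction genes, 22 were measured, and 18 of them were above 0 in simvastatin minus control (median 0.27) but 7 without control 1 (median −0.05). Of all genes 49.6% were above 0 there, and 37.6% without control 1. In combined minus radiation 6 of 22 were above 0 (median −0.21), against 37.4% of all genes (median −0.092). Ocln, which encodes the tight junction protein occludin, was at 8.41, 9.14 and 9.23 on combined arrays 1 to 3 and 10.19, 9.90 and 9.80 on radiation arrays 1 to 3, with no overlap. Combined arrays lay wholly below radiation arrays in 13.5% of all genes. The difference was −1.04 ± 0.46 (SE, unadjusted p = 0.0479, adjusted p = 0.835 in limma). Jam2, a junctional adhesion molecule gene, differed by 0.75 ± 0.31 in simvastatin minus control and by 0.64 ± 0.28 in radiation minus control (SE), with adjusted p of 0.990 and 0.751 in limma. Without control 1 these were 0.43 and 0.33.

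Of 20 genes of VEGF and angiopoietin signalling, 16 were above 0 in simvastatin minus control (median 0.42), 15 in radiation minus control (median 0.18) and 15 in combined minus control (median 0.26). Without control 1 these counts were 13, 6 and 6. Of all genes 49.6%, 60.4% and 50.5% were above 0 in these comparisons, and 37.6%, 52.7% and 40.8% without control 1. Vegfc, a ligand of the lymphatic receptor Flt4, was at 10.50, 11.09 and 10.99 on combined arrays 1 to 3, 10.80, 11.34 and 11.06 on simvastatin arrays 1 to 3, 11.82, 11.58 and 11.17 on radiation arrays 1 to 3, and 9.23, 10.60 and 10.38 on control arrays 1 to 3. Only combined 1 among the treated arrays lay below the highest control. Radiation minus control was 1.45 ± 0.35 (SE, unadjusted p = 0.00213, adjusted p = 0.751 in limma), and 1.03 without control 1. Dll4, a Notch ligand of tip cells, was at 6.79, 7.37 and 7.67 on combined arrays 1 to 3, 7.97, 8.29 and 8.18 on radiation arrays 1 to 3, and 7.58, 8.89 and 8.21 on control arrays 1 to 3. The combined arrays lay below all radiation arrays, as in 13.5% of all genes. Combined minus radiation was −0.87 ± 0.34 (SE, unadjusted p = 0.0286, adjusted p = 0.835 in limma).

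Of 19 listed genes of nitric oxide and endothelin signalling, 15 were measured. In combined minus radiation 1 of them was above 0, against 37.4% of all genes, with a median of −0.23 against −0.092 over all genes. The lowest p of the list in that comparison was that of Edn3, which encodes endothelin-3, with −1.11 ± 0.50 (SE, adjusted p = 0.835 in limma). Arg2, an arginase gene whose product uses the substrate of nitric oxide synthase, differed by 1.82 ± 0.88 in radiation minus control (SE, adjusted p = 0.751 in limma), and by 1.01 without control 1. It was at 9.37 on simvastatin 2 and at 6.72 and 6.50 on simvastatin 1 and 3.

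Of 25 genes of the statin and Klf2 response, 22 were measured. Of these, 16 were above 0 in simvastatin minus control (median 0.17), 14 in radiation minus control (median 0.30), 12 in combined minus control (median 0.15) and 10 in combined minus radiation (median −0.0041). The shares over all genes were 49.6%, 60.4%, 50.5% and 37.4%. Without control 1 the comparisons with control had 13 (median 0.018), 12 (median 0.052) and 10 (median −0.063), in the same order. The shares over all genes were then 37.6%, 52.7% and 40.8%. Rhob, a small GTPase gene, was at 13.12, 13.12 and 13.16 on combined arrays 1 to 3, 13.18, 13.58 and 13.22 on simvastatin arrays 1 to 3, 12.94, 12.95 and 13.48 on radiation arrays 1 to 3, and 12.02, 12.86 and 12.79 on control arrays 1 to 3. Every treated array lay above every control array. Over all genes, 4.86% had radiation arrays and 2.67% combined arrays wholly above the control arrays. For simvastatin the share was 3.36%, counted with simvastatin 1 and 3 averaged. Combined minus control was 0.58 ± 0.24 (SE, adjusted p = 0.995 in limma), and 0.31 without control 1. Simvastatin minus control was 0.83 ± 0.26 (SE, unadjusted p = 0.0106, adjusted p = 0.990 in limma), and 0.57 without control 1. Plat, which encodes tissue plasminogen activator, differed by 1.23 ± 0.33 in radiation minus control and by 1.01 ± 0.36 in simvastatin minus control (SE), with adjusted p of 0.751 and 0.990 in limma. Without control 1 the Plat differences were 0.94 and 0.71. Mef2c, which encodes a MEF2 factor upstream of Klf2 in endothelial cells, was at 11.02, 10.77 and 10.50 on combined arrays 1 to 3, 10.43, 10.28 and 10.32 on simvastatin arrays 1 to 3, 9.98, 10.26 and 9.81 on radiation arrays 1 to 3, and at least 10.51 on the control arrays. Each radiation array lay below every other array, and combined minus radiation was 0.75 ± 0.20 (SE, unadjusted p = 0.00382, adjusted p = 0.835 in limma). Combined arrays lay wholly above radiation arrays in 3.7% of all genes.

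Markers of other tissues moved between arrays as well. Skeletal muscle markers summed to a log2 of 15.8, 15.5 and 8.56 on combined arrays 1 to 3, 8.80, 7.26 and 8.71 on simvastatin arrays 1 to 3, 14.8, 13.6 and 8.10 on radiation arrays 1 to 3, and 15.2 on control 1 and 13.8 on control 3, with control 2 between them. Klf2 and Klf4 were high on combined 1 and 2 and low on control 1, control 3 and radiation 2, all arrays where these markers were high. They were also high on the simvastatin arrays, where the markers were low. Squamous epithelial markers, whose tissue also makes Klf4, summed to 14.6, 16.6 and 6.53 on combined arrays 1 to 3. They summed to 6.55 to 6.78 on simvastatin arrays, 6.45 to 13.9 on radiation arrays and 9.13 to 16.3 on control arrays. The skeletal muscle and squamous marker sums were wholly lower on simvastatin than on control arrays, so the drug and these tissues cannot be told apart in that comparison. The Klf4 level of the simvastatin arrays was 13.76 to 14.13. The part of the other tissues in these differences was not tested.

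**Figure D4:**
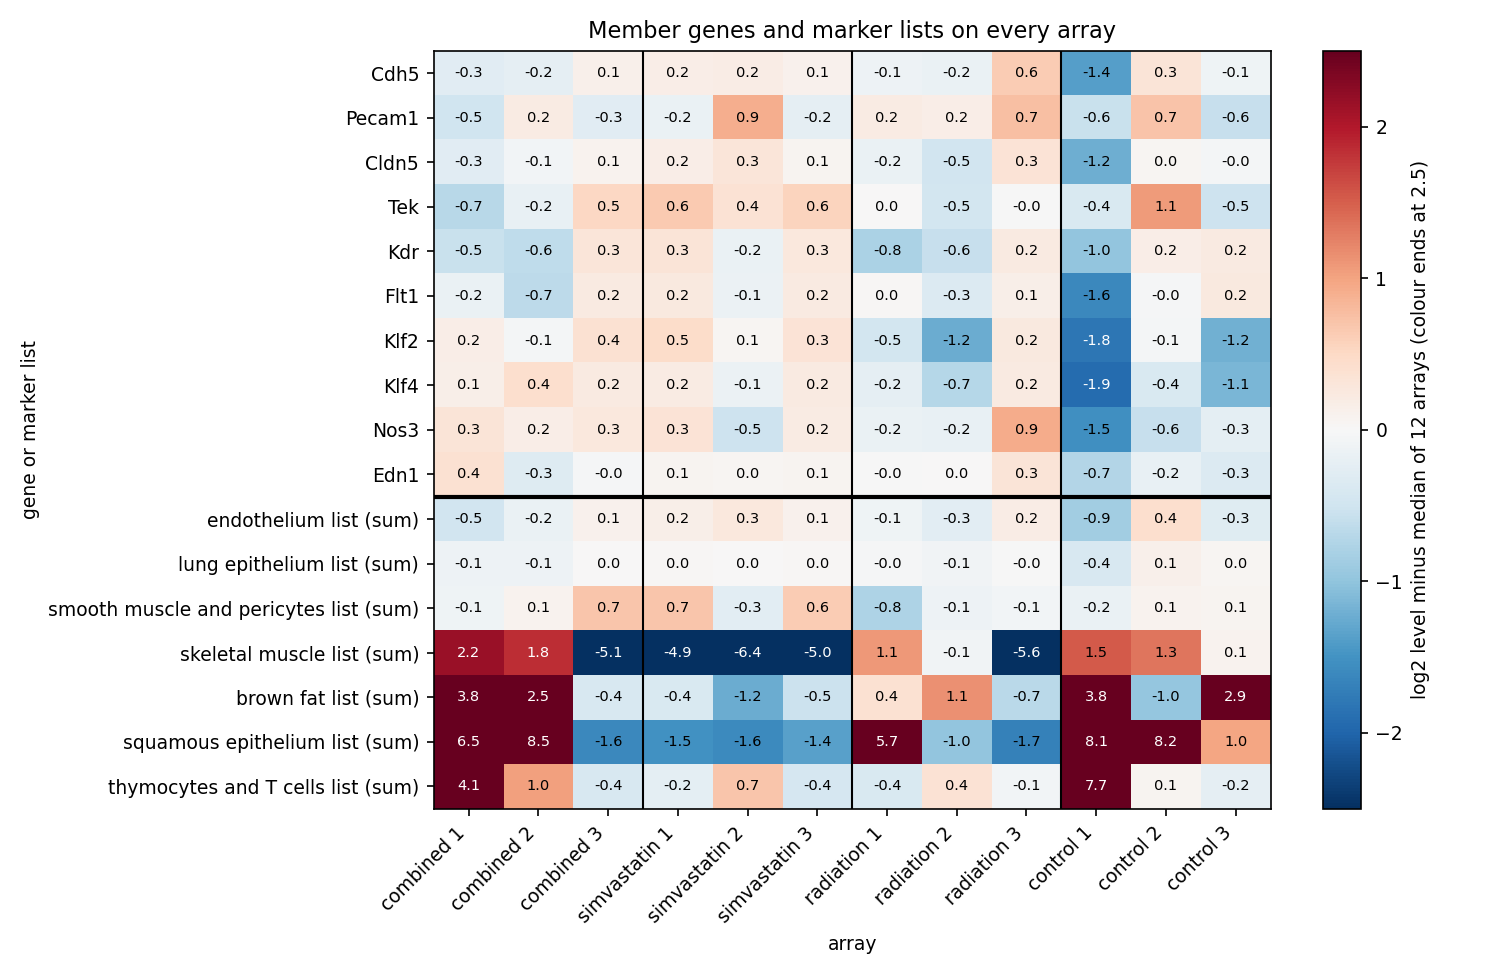
Log2 level of the 10 genes (upper rows) and log2 summed level of the marker lists (lower rows) on each of the 12 arrays, as the difference from the median of the 12 arrays, with colour ending at a difference of 2.5. The control 1 column is low for nearly every member, Klf2 and Klf4 are low on radiation 2, control 1 and control 3, and the skeletal muscle row is low on combined 3, the simvastatin arrays and radiation 3.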

How the data were processed

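Total RNA of mouse lung was measured on 12 Affymetrix arrays. The values are the log2 expression values the authors deposited, which MAS5 and GCRMA were used to make, per the submitters' processing notes. The notes do not say which tool made which values, and no tool version is given in the sources used here. Of 45101 probe sets, 34945 had 1 gene symbol in the platform annotation, 932 had several and 9160 had none, and 64 Affymetrix control probe sets were left out. Probe sets above a log2 of 4.85, the median of all values, on at least 3 of 12 arrays were kept, and each gene was represented by its probe set of highest mean, giving 11602 genes. Array medians ran from 4.42 to 5.12, and the number of arrays limits the precision.

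Group means were compared with limma 3.58.1 in R 4.3.3 (lmFit, eBayes with a trend), with 11 samples, 7 residual degrees of freedom and Benjamini-Hochberg adjustment over 11602 genes at 0.05. There were 6 comparisons from the design, and 2 were added after the values were seen. The text names the 10 members, the 2 genes of lowest p in each wider list and comparison (a selection of these is printed), the 2 genes most correlated with each member, and Cdkn1a and Eda2r. The relative levels and the order of topics were chosen after the values were seen. The members and lists were chosen with earlier results of these data known. The fit was tested on simulated data. Alternatives changed the samples, scaling, filter, probe set rule and model, and the closing section gives their effect.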

Additional observations from a re-analysis of the deposited data

How the results depend on the processing

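No gene of the 11602 passed an adjusted p of 0.05 in limma in any of the 8 comparisons, with 151 to 600 genes at an unadjusted p under 0.05. With array weights the counts were 1241 in radiation minus control, 1172 in combined minus radiation and 43 in combined minus control, and the cause was not tested. Without control 3, combined 3 and simvastatin 2 together, they were 9 in radiation minus control, 2 in combined minus control and 2 in irradiated minus unirradiated. Leaving out each array in turn gave 0 to 1 genes in radiation minus control, combined minus control, the interaction, and irradiated minus unirradiated, the 1 being without control 3, and 0 to 0 in the others. No member passed in any alternative; the lowest adjusted p was 0.0593, for Tek in radiation minus control with array weights, where the members' median was −0.24. With the replicate number as a block the counts were 0 in all comparisons. Same-numbered arrays had correlations of −0.26 to 0.41 (median 0.061), 8 of 18 pairs above 0.1. With several arrays standing apart from their group, this check cannot settle whether the numbers pair the samples. Centring each array on its median put the all-gene median at 0.36 in radiation minus control, against 0.084 before, and at −0.45 in combined minus radiation, against −0.092. Under that centring Klf2 in combined minus radiation was 0.29. Centring shifts all genes of an array alike, so the place of Klf2 against the all-gene median was fixed in advance. Without control 1 the members' median was 0.076 in radiation minus control, 0.25 in simvastatin minus control and −0.16 in combined minus control, against 0.50, 0.53 and 0.29 with it. The all-gene medians without control 1 were 0.015, −0.075 and −0.061, in the same order.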
